A study of Mus musculus with 9 samples.

Results

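The cytosolic ribosomal protein genes encode the proteins of the small (40S) and large (60S) subunits of the ribosome, the machine that translates every nuclear-encoded messenger RNA. They were followed here at 60 gene starts, of 33844 measured in all, chosen by symbol: Rpl or Rps with a number and at most a short letter suffix, together with Rplp0, Rplp1, Rplp2 and Rpsa. Pseudogene copies whose symbol holds -ps and the Rps6k kinases were left out. The assay was ATAC-seq, a readout of open chromatin by a transposase that cuts accessible DNA and tags it for sequencing, applied to CD1 (ICR) mice with no genetic change named in the labels. The groups were 3 libraries each of cardiomyocytes at postnatal day 1 (P1), day 14 (P14) and day 56 (P56). Each library pooled hearts, 12 at P1 and 6 to 7 at the later stages, and nuclei were sorted on Pcm1, a protein found at the nuclear envelope of cardiomyocytes. A surgical step appears in the growth protocol, and whether it applied to these animals is not stated.

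Ribosomal protein genes are expressed in every cell type and their products are made in matched amounts, since a subunit needs nearly all of them. Their messenger RNAs characteristically begin with a tract of C and T bases, the 5′ TOP element, through which growth signals act on their translation. A few have paralogs of restricted expression, among them Rpl3l, the form of Rpl3 found in striated muscle. In the heart, growth after birth takes place mainly by enlargement of existing muscle cells, which needs ribosomes.

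Of 79 core ribosomal proteins of the mouse, 55 had a start in the table and 24 were not analysed here. The 60 genes comprised 18 of the 40S subunit, 36 of the 60S subunit and 6 outside the core list: Rpl3l, Rpl10l, Rpl39l, Rps4l, Rps27l and Rpl6l. RefSeq classed Rpl6l and Rps4l as pseudogenes and the other 58 as protein coding. They lay on 18 chromosomes, with 12 on chromosome 7. All 60 passed the filter on low counts, as did 33747 of all starts.

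The promoters are shown first because the counted regions are gene starts. RefSeq (GRCm38.p6) gave a promoter of 250 bases before to 50 after the start for 45 of the 60 genes, and 8 of these had more than 1 annotated start, of which the one nearest to the gene's annotated 5′ end was taken. Rpl3l and Rpl18, the genes whose starts passed the test between P1 and P56, are printed from 150 bases before the start to 20 bases from it onward. The printed Rpl18 start, at 45718071, lies inside the RefSeq span of the gene, which begins at 45715467. Positions of the counted regions are not given in the sources used here, so a printed start may differ from the counted one. In Rpl3l (chr17:24727676-24727845, plus strand) capitals mark CANNTG, the E-box bound by muscle and other basic helix-loop-helix factors, and in Rpl18 (chr7:45717921-45718090, plus strand) they mark CCGGAA, the core of ETS-family motifs, on either strand.
Rpl3l: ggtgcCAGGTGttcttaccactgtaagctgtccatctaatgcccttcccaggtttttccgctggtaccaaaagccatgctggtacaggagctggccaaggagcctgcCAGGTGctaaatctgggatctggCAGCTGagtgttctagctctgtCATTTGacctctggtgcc
Rpl18: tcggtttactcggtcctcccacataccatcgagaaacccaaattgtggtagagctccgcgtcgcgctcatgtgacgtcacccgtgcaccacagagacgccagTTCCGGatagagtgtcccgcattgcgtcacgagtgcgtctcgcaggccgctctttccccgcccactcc

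The Rpl3l stretch held 4 CANNTG matches and no CCGGAA, and the Rpl18 stretch held 1 of each. Over the whole window Rpl3l had 2 CpG dinucleotides, the fewest of the 45 members, at 0.0892 of the number expected from its C and G content. Rpl18 had 26, at 0.929. Of the 33747 starts tested, 15211 had a promoter in RefSeq by symbol, and these are the promoters called all here and in the next paragraph. The median was 21 in the members and 13 in all. Observed-to-expected ratios were 0.837 and 0.565, with a similar GC content of 57.0% and 56.3%. Both strands were searched for each motif. CCGGAA stood in 51.1% of the member promoters and 18.2% of all, and AAGATGG, a YY1 core, in 13.3% and 6.23%. GGGCGG, the Sp1 box, stood in 55.6% and 46.5%, CACGTG, an E-box that is also a case of CANNTG and is bound by Myc, in 11.1% and 8.19%, and TATAAA in 8.89% and 12.0%. CANNTG stood in 53.3% and 69.5%, and the MEF2 consensus in none of the 45 and 2.71% of all. These matches are letters in a window and no evidence of binding.

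The start itself was searched for a pyrimidine run. Unlike the 5′ TOP element, such a run need not begin at the first transcribed base. A run of at least 5 C or T bases reaching within 5 bases of the annotated start was found in 55.6% of member promoters and 30.9% of all. The windows below run from 20 bases before the start, whose first transcribed base is the next letter, and capitals mark the longest such run. They set genes with a long run (Rps6, Rplp2, Rpl38 and Rpl13a) beside paralogs without one (Rpl3l and Rpl10l). These are picked examples, and the run did not divide core genes from paralogs. The paralogs Rps27l and Rpl39l had runs of 9 and 7 bases, and the core genes Rps19 and Rpl11 only 4 and 2.
Rps6 (chr4:86857348-86857387, minus strand): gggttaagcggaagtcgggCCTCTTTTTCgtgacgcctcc
Rplp2 (chr7:141447631-141447670, plus strand): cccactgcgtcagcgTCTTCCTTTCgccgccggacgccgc
Rpl38 (chr11:114668560-114668599, plus strand): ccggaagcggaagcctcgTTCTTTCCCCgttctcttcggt
Rpl13a (chr7:45128726-45128765, minus strand): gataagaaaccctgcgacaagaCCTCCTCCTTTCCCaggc
Rpl3l (chr17:24727806-24727845, plus strand): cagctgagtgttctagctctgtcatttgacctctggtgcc
Rpl10l (chr12:66284382-66284421, minus strand): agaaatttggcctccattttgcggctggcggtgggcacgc

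Counts over all starts totalled 481217 to 2167369 per library, lowest at P14, and the 60 genes took 783 to 3701 of them. Levels are given as CPM, counts relative to a common scaled library total of 1e6. A pair of libraries stood apart. The share of peak counts in the top 10% of peaks, a measure of signal over background, was lowest in P1 replicate 1 (23.9%) and highest in P56 replicate 2 (30.2%). The summed level of 10 cardiomyocyte markers was also lowest in the first, at 489 CPM, and highest in the second, at 2321 CPM, against 774 to 1230 CPM in the other 7. The ribosomal protein genes were also lowest and highest in these libraries, so group results and calls are also given without them. Their mean level was 4.38 log2 CPM in P1 replicate 1 and 5.34 in P56 replicate 2, against 4.61 to 4.86 in the other 7. The highest value of 43 of the 60 genes was in P56 replicate 2 (71.7%, against 20.7% of all starts), and the lowest value of 24 was in P1 replicate 1 (40.0%, against 11.4%). The part of signal over background in these results was not tested.

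**Figure D1:**
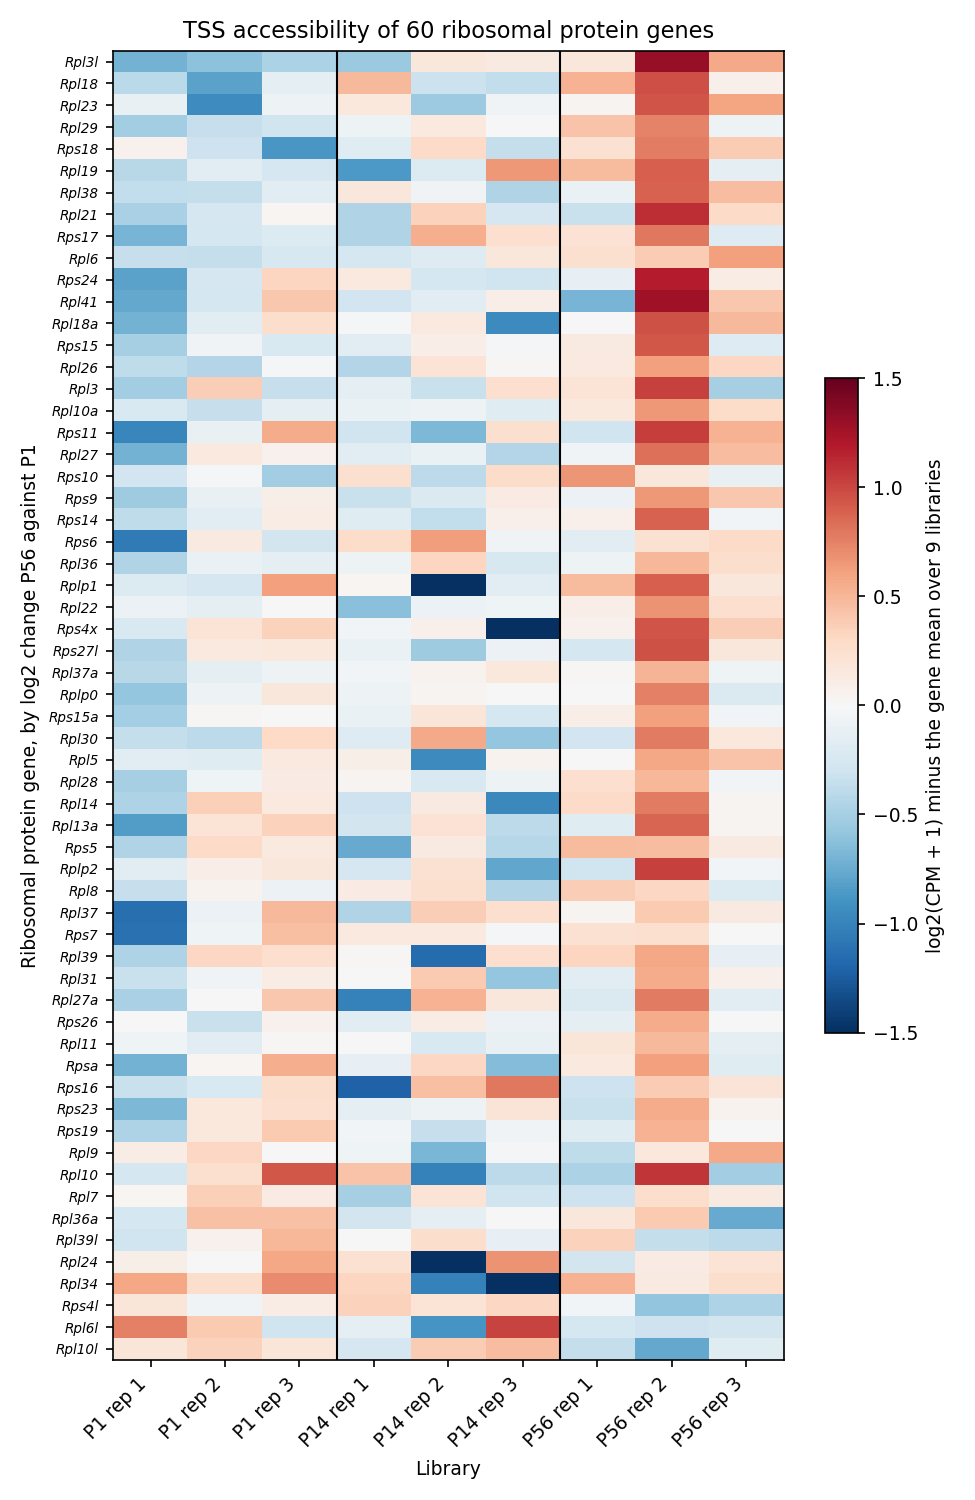
Accessibility of the 60 ribosomal protein gene starts (rows, ordered by their log2 change from P1 to P56) in the 9 libraries (columns), as log2(CPM + 1) minus the gene's mean over the libraries. The column of P56 replicate 2 is red for most genes and that of P1 replicate 1 blue, while the lowest rows, Rpl6l, Rps4l and Rpl10l, do not follow them.

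From P1 to P56 the ribosomal protein gene starts stood higher at P56 as a group, with 51 of 60 log2 changes above 0 and a median of 0.43, or 1.35-fold. The median of all starts was -0.01 and 49.3% of them were above 0. With edgeR's quasi-likelihood test adjusted over all starts, 2 members rose, Rpl3l and Rpl18, and none fell (3.33%). DESeq2 called Rpl3l, and limma-voom Rpl3l and Rpl6. Of all starts 2.53% were called, and 1.72% were called higher. At an unadjusted p below 0.05 there were 22 higher and 1 lower members, or 38.3% of the 60 against 21.6% of all starts. Every P56 value was above every P1 value in 14 members and in 10.9% of all starts. The reverse occurred in 1 member, Rpl10l, and 13.2% of all starts. In these pools of nuclei, a smaller share of cells with an open site and less access per cell cannot be told apart.

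The shift of the group was not seen without the pair of libraries that stood apart. These libraries also held the lowest P1 and the highest P56 mean level of the members. Leaving them out therefore had to lower the group's change and is no independent check of it. Without P56 replicate 2 the median was 0.19, with 42 of 60 above 0, and without P1 replicate 1 it was 0.25, with 45. Without both it was -0.02, with 30 above 0 and 30 below. In that fit 2.06% of all starts were called. Of the members Rpl3l was called higher (0.90, adjusted p = 0.000729) and Rpl10, a 60S protein at the subunit joining face, lower (-1.24, adjusted p = 0.043). Rpl10 had a change of -0.06 with all libraries, and its values were 11.3, 16.4 and 27.3 CPM at P1 and 9.69, 30.1 and 9.32 at P56, so that leaving out these libraries removed the lowest P1 value and the highest P56 value. It was named after this value was seen.

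**Figure D2:**
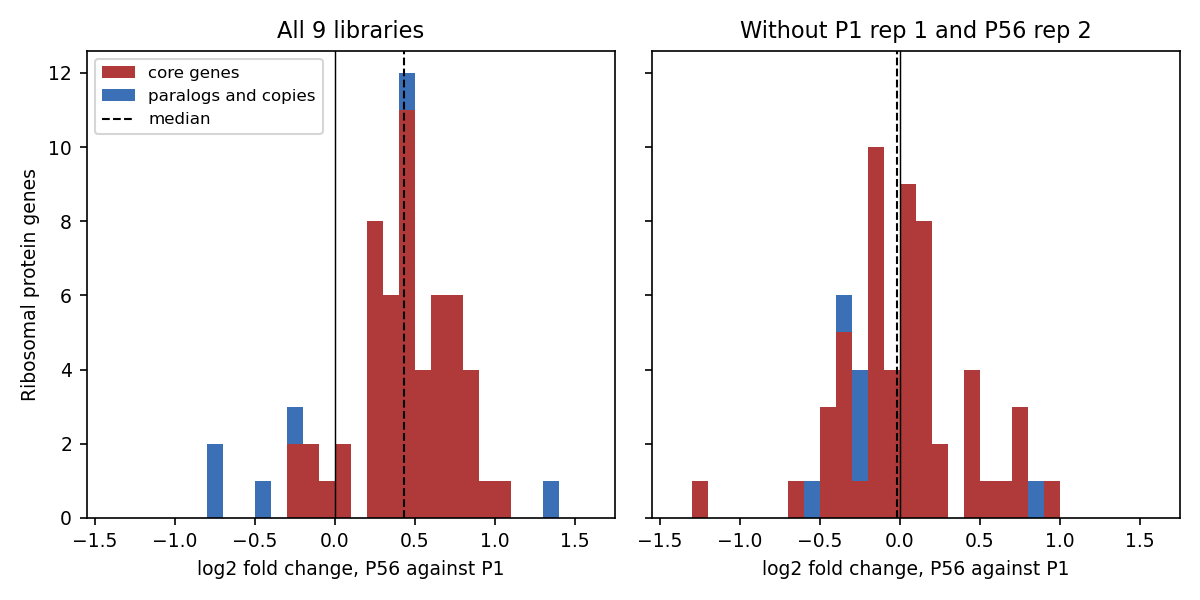
Log2 fold changes of the 60 gene starts from P1 to P56, counted in steps of 0.1, with all 9 libraries (left) and without P1 replicate 1 and P56 replicate 2 (right). Core genes are red, the 6 genes outside the core list blue, and the dashed line is the median, at 0.43 and -0.02.

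Rpl3l (ENSMUSG00000002500, chromosome 17, 24727826 to 24736143), the striated muscle form of the Rpl3 protein at the peptidyl transferase centre, had the highest mean level of the 60, at 91.1 CPM and the 95.4th percentile of all starts. It was 49.97, 53.4 and 58.8 CPM in the P1 libraries, 55.5, 92.8 and 90.1 at P14, and 92.5, 205 and 122 at P56. The P56 values lay above all P1 values, and 1 P14 library lay in the P1 range. The change from P1 to P56 was 2.61-fold (log2 1.38 ± 0.216 SE, edgeR adjusted p = 0.00107, higher in 3 of 3 libraries). It was called in each of 21 alternative analyses, with log2 changes of 0.90 to 1.61 and adjusted p of 9.86e-08 to 0.0154. Its change was 0.51 from P1 to P14 and 0.87 from P14 to P56, and neither passed (adjusted p = 0.566 and 0.287).

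Rpl3 (ENSMUSG00000060036, chromosome 15, 80077781 to 80083406), the form in other tissues, stood far lower per start: 9.13, 17.8 and 10.5 CPM at P1, 12.2, 10.5 and 16.4 at P14, and 15.9, 28.6 and 9.32 at P56. The stages overlapped, and the change of 0.65 did not pass (adjusted p = 0.231). The log2 ratio of Rpl3l to Rpl3 at P1 was 2.02 ± 0.455 (SD, n = 3), and the ratio reached 2.45 ± 0.463 at P14 and 2.90 ± 0.547 at P56. Over all 1680 assignments of libraries to stages, an exact two-sided permutation of F gave p = 0.164 (adjusted over 5 paralog pairs 0.274), where 0.00357 is the smallest possible. The ratio thus did not pass a test over the stages together. Every P56 ratio still lay above every P1 ratio, while the P14 ratios overlapped both. The change of the ratio from P1 to P56 alone was not tested.

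Rpl18 (ENSMUSG00000059070, chromosome 7, 45715467 to 45720835), a 60S protein, was the other called member. It was 13.9, 10.3 and 16.8 CPM at P1, 26.7, 14.8 and 14.3 at P14, and 27.3, 37.6 and 19.8 at P56. Every P56 library was above every P1 library, and P14 replicate 1 lay within the P56 range. The change was 2.08-fold (log2 1.06 ± 0.279 SE, adjusted p = 0.0374). The call was kept in 7 of 20 alternatives, whose changes ran from 0.75 to 1.23 (adjusted p 0.0135 to 0.21). It was lost without P56 replicate 2 (0.78, 0.21), P1 replicate 2 (0.91, 0.126), P1 replicate 1 (1.05, 0.092), P14 replicate 2 (1.07, 0.0547) or P14 replicate 3 (1.06, 0.0526), and without both libraries that stood apart (0.77, 0.188).

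Both called genes had close neighbours whose starts also rose. Distances in this paragraph are gaps between RefSeq gene spans, and those between starts were not computed. Msrb1, a methionine sulfoxide reductase 450 bp from Rpl3l, went from 22.6, 33.6 and 36.8 CPM at P1 to 40.5, 83.5 and 57.1 at P56 (0.98, adjusted p = 0.0354), and Ndufb10, a complex I subunit 3403 bp away, changed by 1.04 (0.0258). Sphk2, a sphingosine kinase whose RefSeq span overlaps that of Rpl18, went from 20.9, 30.8 and 27.3 CPM to 55.5, 122 and 78.1 (1.72, 0.00054), and Fam83e, 336 bp from Rpl18, did not pass (0.87, 0.0883). The width of the counted start regions is not given in the sources used here, so neighbouring regions may share reads. Over the 60 genes, 43 had 60 neighbours within 5 kb, and 4 of those neighbours (6.67%) were called, against 2.53% of all starts, all higher: the 3 named here and Pnpla2, a triglyceride lipase 3829 bp from Rplp2, which was chosen after its values were seen. Without both libraries that stood apart Sphk2 was still called (1.17, adjusted p = 0.000488), and Msrb1 (0.43, 0.354), Ndufb10 (0.50, 0.214) and Pnpla2 (0.33, 0.335) were not.

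**Figure D3:**
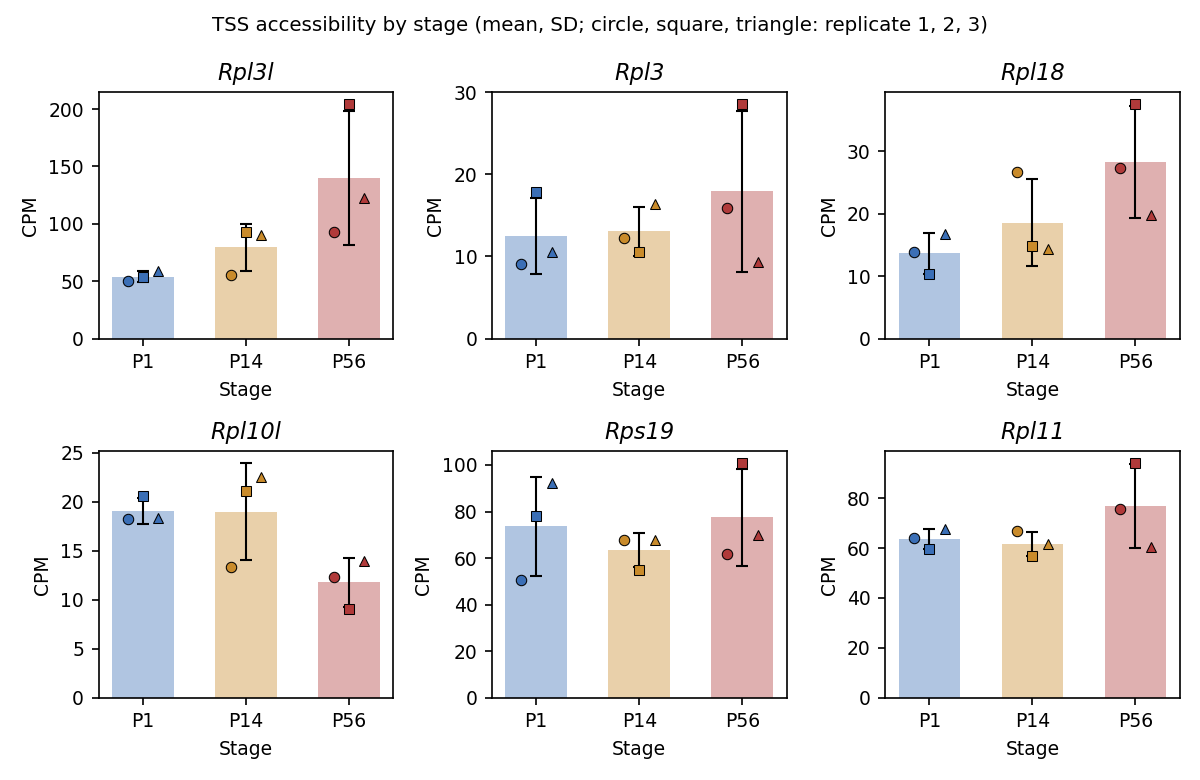
Accessibility in CPM at the starts of 6 ribosomal protein genes by stage, with bars for the mean, lines for the SD over 3 libraries, and a circle, square and triangle for replicates 1, 2 and 3. Every P56 point of Rpl3l and Rpl18 lies above their P1 points, every P56 point of Rpl10l lies below its P1 points, and the stages of Rpl3, Rps19 and Rpl11 overlap.

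The core 60S genes had 31 of 36 changes above 0 and a median of 0.43, with Rpl18 called. The next smallest p values, chosen after they were seen, were those of Rpl29 (0.85, adjusted p = 0.0606), Rpl6 (0.74, 0.0719) and Rpl23 (0.93, 0.0787). Rpl6 was 28.2, 28.1 and 30.5 CPM at P1 and 43.2, 47.4 and 55.9 at P56, with its highest value in P56 replicate 3. Its change was 0.72 without both libraries that stood apart (adjusted p = 0.09). Rpl38, a protein whose loss in the Tail-short mouse alters the axial skeleton, was 21.7, 21.9 and 25.2 CPM at P1 and 26.4, 53.4 and 39.6 at P56 (0.80 ± 0.262 SE, 0.081), without overlap. Its change was 0.43 without both libraries.

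Rpl5 and Rpl11, which carry the 5S RNA into the 60S subunit and bind Mdm2 when assembly fails, did not pass. Rpl5 was 30.0, 29.5 and 37.3 CPM at P1 and 33.5, 50.4 and 45.4 at P56 (0.42, adjusted p = 0.335). Rpl11, the third highest member, was 63.9, 59.6 and 67.7 CPM and 75.8, 94.1 and 60.6 (0.28, 0.391). Both overlapped between stages. Rpl13a, known outside the ribosome as a repressor of inflammatory messages, was 14.8, 31.5 and 34.7 CPM and 23.8, 50.4 and 27.96 (0.39, 0.458), with its lowest value in P1 replicate 1 and its highest in P56 replicate 2. The 5 core 60S genes below 0 were Rpl34, Rpl24, Rpl36a, Rpl7 and Rpl10, at -0.26 to -0.06, and none passed.

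The stalk proteins, which recruit the elongation factors to the 60S subunit, gave 3 changes above 0 and no call by edgeR, DESeq2 or limma-voom, and none at an unadjusted edgeR p below 0.05. Rplp0 was 0.43 (adjusted p = 0.354), Rplp1 0.47 (0.333) and Rplp2 0.34 (0.48), and P56 replicate 2 held the highest value of each. Rplp2, for example, was 32.2, 38.4 and 40.4 CPM at P1 and 29.1, 73.7 and 34.95 at P56. Without both libraries Rplp0 was -0.17, Rplp1 0.05 and Rplp2 -0.33.

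All 18 core 40S genes had changes above 0, with a median of 0.48 and no call. Their smallest adjusted p was 0.0809, for Rps18 (0.82), chosen after its value was seen. DESeq2 and limma-voom called none of them either, and 7 had an unadjusted edgeR p below 0.05. Rps6, the substrate of the S6 kinases, was 11.7, 28.1 and 21.0 CPM at P1, 31.1, 40.1 and 24.6 at P14, and 22.9, 30.1 and 31.5 at P56 (0.51, adjusted p = 0.295). Its highest value was in P14 replicate 2. Rps14, whose loss of a copy underlies a human anemia with a chromosome deletion, was 35.6, 41.8 and 50.4 CPM at P1 and 49.3, 87.3 and 45.4 at P56 (0.53, 0.187). Rpsa, also known as the laminin receptor, was 0.27 (0.638). Without both libraries 10 of the 18 were above 0 and the 40S median was 0.01.

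Rps19, the gene most often mutated in human Diamond-Blackfan anemia, had the second highest mean level, 71.5 CPM. It was 50.4, 78.1 and 92.4 CPM at P1, 67.8, 54.8 and 67.6 at P14, and 61.7, 101 and 69.9 at P56. The change was 0.09 (adjusted p = 0.828), and it ran from -0.40 to 0.30 over the alternatives. At the other end, Rps16 (9.72 CPM) and Rpl6l (9.44 CPM) had the lowest mean levels of the 60. Rps16 was 0.22 (adjusted p = 0.76), on 16 reads in both P1 replicate 1 and P56 replicate 2. These levels are per start region and not per length, and order the starts, not the transcripts. The 8 measured Diamond-Blackfan genes were all above 0, with a median of 0.37 and no call, and 13 hosts of small nucleolar RNAs had 12 above 0, with a median of 0.39 and no call. Each of these lists had 3 members at an unadjusted edgeR p below 0.05, and DESeq2 and limma-voom called none. Without both libraries that stood apart 5 of the 8 Diamond-Blackfan genes were above 0, with a median of 0.05 and no call by edgeR. Of the 13 snoRNA hosts 3 were then above 0 and the median was -0.19, with Rpl10 called lower.

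Of the 6 genes outside the core list, 2 had changes above 0 (Rpl3l and Rps27l), and the median was -0.34. Without both libraries that stood apart only Rpl3l of the 6 was above 0, and the median was -0.28. Their difference from the core genes was not tested. Rpl10l, a retrocopy of Rpl10 needed for sperm development in mice, was 18.3, 20.6 and 18.4 CPM at P1, 13.3, 21.1 and 22.5 at P14, and 12.3, 9.03 and 14.0 at P56. All P56 values were below all P1 values, with a change of -0.72 ± 0.286 (SE) that did not pass (adjusted p = 0.146). It was below 0 in each of 19 alternatives, from -0.999 to -0.53, none of them called.

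Rps4l, a copy of Rps4x that lies within the gene Tmtc1, was 18.7, 15.8 and 17.9 CPM at P1, 21.1, 19.0 and 20.5 at P14, and 15.9, 10.5 and 11.7 at P56 (-0.47, adjusted p = 0.322). Its log2 ratio to Rps4x was 0.01 ± 0.36 (SD, n = 3), 0.83 ± 0.969 and -0.76 ± 0.689 over the stages (exact permutation p = 0.0393, adjusted over 5 pairs 0.196). Rpl6l was -0.71 (adjusted p = 0.286) and Rpl39l, a testis form of Rpl39, -0.21 (0.704). Rps27l, a p53 target, was 26.9, 41.1 and 41.5 CPM at P1 and 30.8, 73.0 and 41.9 at P56 (0.44, 0.335). The adjusted p of the other pairs, Rpl6l, Rpl10l and Rpl39l with their general forms, were 0.205, 0.504 and 0.504.

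Pseudogene copies of the same family, 174 tested, had a median change of -0.10 with 67 above 0. Of these 2 fell and none rose: Rpl13-ps6 (-1.68, adjusted p = 0.0382) and Rpl21-ps14 (-1.32, 0.0305), which were named after their values were seen. Of all starts 0.806% were called lower, and DESeq2 and limma-voom called none of the copies. EdgeR called none of them without P1 replicate 1, without P56 replicate 2, without both or with the offsets described next, and without both the changes were -1.43 (0.16) and -1.32 (0.0812) and the median of 155 copies tested was 0.01. The copies are mostly retrocopies without the parent promoter, and their median level was 12.2 CPM against 26.5 for the members. Over all starts, low levels went with lower and high levels with higher changes at P56. With loess offsets that remove this trend within each library, the median of the members was 0.33, that of the pseudogene copies 0.13 and that of all starts 0.00. Only Rpl3l was then called among the members. How reads that match several copies were placed is not given in the sources used here.

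**Figure D4:**
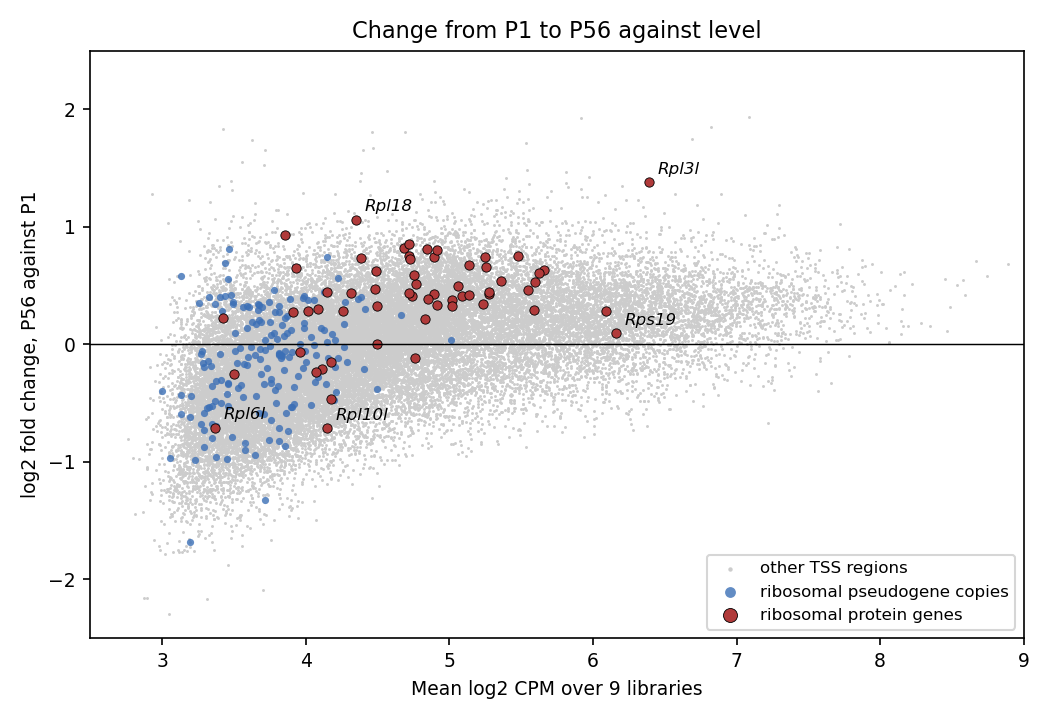
Log2 fold change from P1 to P56 against mean log2 CPM over the 9 libraries for all starts tested (grey), ribosomal pseudogene copies (blue) and the 60 ribosomal protein genes (red). The cloud of all starts climbs with level, most red points lie above 0, and Rpl3l stands apart at the upper right.

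From P1 to P14 none of the members was called by edgeR, DESeq2 or limma-voom, against 4 of all starts (0.0119%), and 3 (5%) had an unadjusted edgeR p below 0.05, against 8.59% of all starts. The median was 0.03 with 32 of 60 above 0, and that of all starts 0.00. The group median moved either way with 1 library: it was -0.13 with 20 above 0 without P1 replicate 1, and 0.19 with 45 above 0 without P1 replicate 3. Without both libraries that stood apart it was -0.14, with 20 above 0. The changes ran from -0.95 for Rpl34 to 0.69 for Rps6. P14 libraries were shallow, and the median member had 10.5 to 21 reads in them, which limits what could be detected there.

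From P14 to P56 the median was 0.45, with 54 of 60 above 0 and -0.02 for all starts. No member was called by edgeR, DESeq2 or limma-voom, against 1 of all starts (0.00296%), and 11 (18.3%) had an unadjusted edgeR p below 0.05, against 10.1% of all starts. Of the 11, 10 were higher. Rpl3l had the smallest adjusted p, 0.287. This comparison shares its P56 libraries with the one from P1, and without P56 replicate 2 its median was 0.13, with 44 above 0. Without both libraries that stood apart the values were the same at this rounding.

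The second deposited table counts reads in peaks. Within 1 kb of either end of the RefSeq span, 39 peaks lay at 37 of the genes, none of them Rpl3l or Rpl18. Peaks deeper inside a span were not searched. The annotated Rpl18 start, at 45718071, lies inside its span more than 1 kb from either end, so a peak there could be missed. The 39 peaks were 660 to 4807 bases wide, and 26 held a RefSeq start of the gene, 3 did not, and 10 could not be assigned. None was called between P1 and P56 by edgeR, DESeq2 or limma-voom, and none had an unadjusted edgeR p below 0.05, against 16.0% of all peaks. Of all peaks 0.444% were called. Changes were above 0 in 35 of the 39, with a median of 0.31 against 0.03 for all peaks. Of the 39 peaks, 38 had the sign of the gene's start, but both tables come from the same libraries and may share reads. The reads they share were not counted. The peak at Rpl41, chosen after its value was seen, had the smallest adjusted p (0.334), with 52.7, 72.1 and 90.0 CPM at P1 and 65.7, 156 and 80.2 at P56.

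Without both libraries that stood apart, 17 of the 39 peaks were above 0 and the median was -0.09. In that fit 2.74% of all peaks were called, and 1 of the 39, lower at P56, at Rps19 (-0.78, adjusted p = 0.0452), and it was named after its value was seen. With all libraries the peak at Rps19 was the exception in sign, below 0 where the start was at 0.09.

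**Figure D5:**
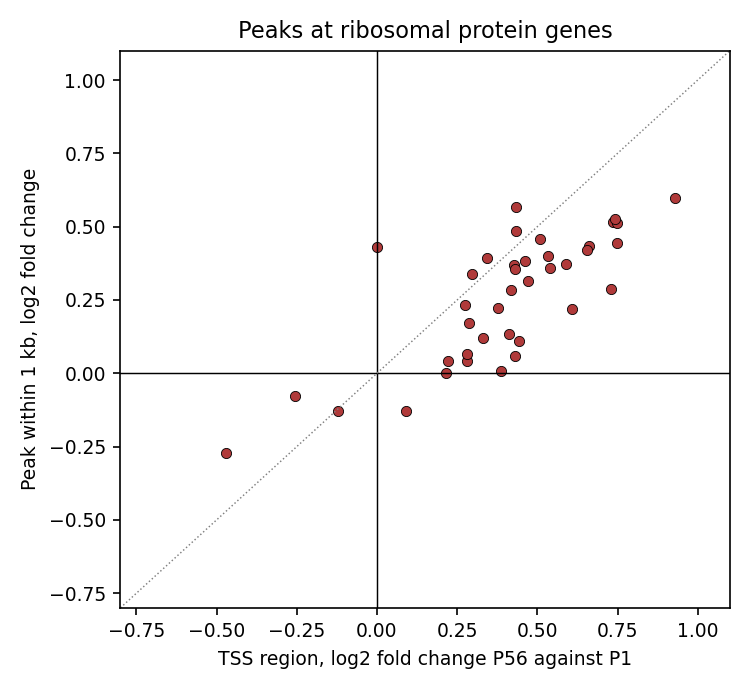
Log2 fold changes from P1 to P56 of peaks (vertical) against those of the gene's start region (horizontal). The 39 peaks lie within 1 kb of either end of a ribosomal protein gene. The dotted line marks equal values. Most points lie above 0 on both axes and below the line.

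Other genes of protein synthesis were described by lists of their roles. Rack1, a scaffold on the 40S head, had a log2 change of 0.31 (edgeR adjusted p = 0.565). Of 36 translation factors 4 rose and none fell, with 34 above 0 and a median of 0.45. Eef1a2, the elongation factor form of muscle and neurons, was 23.5, 42.5 and 38.9 CPM at P1 and 66.1, 127 and 58.3 at P56 (1.302 ± 0.251 SE, adjusted p = 0.00685), and it was called in 19 of 21 alternatives. Eef1a1, the form it replaces in mature muscle, was 36.9, 76.1 and 90.8 CPM and 53.7, 35.4 and 53.6, and did not pass (-0.52, 0.224). Eef2, the translocase, was 1.12 (0.0485), Eif4g1, the cap complex scaffold, 0.57 (0.0316), and Eif1, a start codon selection factor, 0.96 (0.0382). Eef2 and Eif4g1 were each called in 6 of 21 alternatives. None of the 4 rises was called without both libraries that stood apart. In that fit Eef1a1 was called lower (-0.66, adjusted p = 0.0432), as in 2 of its 21 alternatives in all.

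Of 56 mitochondrial ribosomal protein genes 2 rose, Mrps18a (0.83, adjusted p = 0.0243) and Mrpl4 (0.96, 0.0404), with 48 above 0 and a median of 0.42. Without both libraries neither was called (0.47, adjusted p = 0.149, and 0.68, 0.202). Mrps18a was called in 13 of 21 alternatives and Mrpl4 in 6 of 20. Of 47 ribosome biogenesis genes none was called by edgeR or DESeq2 and 1 by limma-voom, with 12 at an unadjusted edgeR p below 0.05 and a median of 0.33. The smallest p were those of Ubtf, an RNA polymerase I factor (0.64, adjusted p = 0.0568), and Utp18, of the 40S processome (-0.88, 0.0925). Without both libraries 1 was called, Rrp9, a U3 snoRNP protein, higher (0.73, adjusted p = 0.0123), which was named after its value was seen. Of 14 growth regulators none was called by edgeR or DESeq2 and 1 by limma-voom, with 6 at an unadjusted edgeR p below 0.05 and a median of 0.33. Rps6kb2, an S6 kinase, was 0.62 (adjusted p = 0.0588) and Mtor 0.66 (0.102). Without both libraries these 4 lists had medians of 0.08, 0.11, 0.07 and -0.02, in the order given. No difference between these lists and the ribosomal protein genes was tested.

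The starts whose pattern over the 9 libraries was most like the members' mean level, among 6322 with a mean count of at least 50, were Cdc42se2, Fhl2, Hnrnpu, Ywhag and Tarbp2. Their Pearson correlations were 0.986 to 0.991, over 9 libraries that share the low P1 replicate 1 and the high P56 replicate 2. Of the marker lists, 5 of 10 cardiomyocyte genes rose from P1 to P56 (Myh6, Myl2, Tnnt2, Tnni3 and Ttn), with sums of 489 to 1082 CPM at P1 and 921 to 2321 at P56. Smooth muscle and pericyte markers summed to 248 to 255 CPM and 322 to 377, with Smtn called of 7. The sums of 6 endothelial markers were 155 to 199 CPM at P1 and 155 to 169 at P56, of 6 fibroblast markers 257 to 293 and 242 to 276, of 6 leukocyte markers 132 to 163 and 140 to 154, and of 4 erythroid markers 60.9 to 75.4 and 53.4 to 65.2. No marker of any list was at 0 in a library. The part of these markers in the change of the ribosomal protein genes was not tested.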

How the data were processed

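Raw read counts per start region and per peak, on GRCm38, are what the authors deposited, in 2 tables. The submitters' processing notes name featureCounts 1.4.2, MACS 1.4.0 and BWA 0.7.10, among others, with no roles. Every deposited region had a mean of at least 10 counts. Counts were fitted over each whole table with edgeR 4.0.16 (R 4.3.3), with TMM and filterByExpr by stage. The test was the quasi-likelihood F test over all 9 libraries, with a Benjamini-Hochberg adjusted p below 0.05. The fit was also run on simulated counts with a common spread and no library standing apart. That run does not check the calls made here. Log2 CPM used a prior count of 2. Alternatives were DESeq2 1.42.0, limma-voom 3.58.1, other scalings, filters and designs, and left-out libraries. Replicate numbers are not stated to pair libraries. P-values cover the spread between pools only. Named were called members (up to 8 by p per comparison and direction), a panel of 17 genes, the highest and lowest 2 by level, and neighbours of called members. The members, lists and rules were chosen with earlier results of these data known. Depth limits precision, since members had 1 to 272 reads per library.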

Additional observations from a re-analysis of the deposited data

How the results depend on the processing

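With P1 replicate 1 and P56 replicate 2 both left out, the members had a median of -0.0175 from P1 to P56 and 0.13 from P14 to P56, and 1 member peak was called. Leaving out libraries gave 1 to 6 called members (6 without P56 replicate 1) and medians of -0.0175 to 0.56 from P1 to P56, 0 to 1 called and medians of 0.13 to 0.55 from P14 to P56, and 0 to 1 called peaks. From P1 to P56, 1 member (Rpl3l) was called with library size, the factors or the effective sizes of the other table (an alternative chosen after seeing the data), loess offsets, the DESeq2 test, only starts with a mean count of 20 or more, 2 stages alone, or an adjusted p below 0.01. With the effective sizes the median was 0.14, against -0.30 for all starts, a difference of 0.44 as before. Same-numbered libraries deviated together with correlations of -0.0748 to 0.219. In each pair of stages replicates 1 and 2 best matched their own number, and replicate 3 best matched replicate 2. Pairing is not stated in the labels, so the main fit did not use it. With the replicate block 7 members were called from P1 to P56 and 1 from P14 to P56. Of all starts 1982 and 76 were called with it, against 853 and 1 in the main fit. Of 669 values of 33 named genes, none reversed a call. Among them 67 lost a call, 10 gained one, and 28 uncalled values changed sign. The cause of these shifts was not tested. Shallow P14 libraries limit the comparisons with that stage.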
